A study of Gossypium hirsutum with 9 samples.

Results

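In cultured ovules of upland cotton, 164 genes had their highest level at 150 mM glucose and stood below their 50 mM level at 300 mM. They were picked from 75376 gene IDs of the Gohir naming (0.218%), in files of 80970 rows. Levels are FPKM, which scale the reads on a gene by its length and by the size of the library. A gene was taken if its group mean of log2(FPKM + 0.5) was at least 0.5 higher at 150 mM than at 50 mM and at least 0.75 lower at 300 mM than at 50 mM. Its mean FPKM at 150 mM also had to be at least 2, with all 3 libraries at 150 mM above, and all 3 at 300 mM below, every library at 50 mM. These levels chose the genes, so they are given as a description and support nothing about glucose.

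The material was ovules of Gossypium hirsutum, strain TM-1, held for 5 days on medium with 50, 150 or 300 mM glucose, with 3 RNA sequencing libraries for each concentration. The groups differ in glucose alone by their labels, share strain, tissue and time, and include no osmotic control, so glucose as a sugar and the osmolarity of the medium cannot be told apart. The labels do not say that replicates were grown apart, so p-values and SDs measure the spread between these samples, which may be technical. Recovered reads, the whole reads behind the FPKM values, numbered 17803779 to 19140297 per library. No name or description goes with the Gohir IDs in the sources used here, so neither the roles of the genes nor the tissue label could be checked against known markers.

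Glucose feeds the cultured ovule, acts on plant cells as a signal, and at high concentration withdraws water from them as any dissolved sugar does. The fibre is a single cell growing out of the ovule surface, and its elongation needs sugar for the wall and for turgor. Brassinosteroid, the steroid hormone named in the title of the study, promotes that elongation in cotton. Upland cotton is an allotetraploid, so many of its genes exist as a copy in the A and a copy in the D subgenome.

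Together the 164 genes took 1.01%, 0.645% and 1.09% of the recovered reads in replicates 1, 2 and 3 at 50 mM. At 150 mM the shares were 1.53%, 1.84% and 1.49%, and at 300 mM 0.553%, 0.338% and 0.299%. The means were 0.914% ± 0.235 at 50 mM, 1.62% ± 0.194 at 150 mM and 0.397% ± 0.137 at 300 mM (SD, n = 3 each). The shares of the 3 groups do not overlap, which the choice of the genes fixes. In bulk tissue fewer cells of a type and less RNA per cell cannot be told apart. Replicate 2 at 50 mM and replicate 1 at 300 mM were the closest pair of libraries from different groups.

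**Figure D1:**
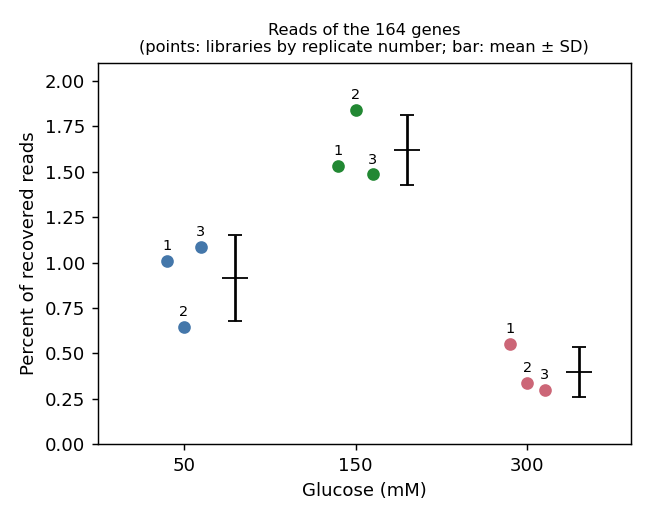
Share of the recovered reads that fell on the 164 genes, in percent, for each library at 50, 150 and 300 mM glucose. Points are libraries with their replicate number, and the bar beside them is the mean ± SD (n = 3). Replicate 2 at 50 mM (0.645%) and replicate 1 at 300 mM (0.553%) lie nearest to each other.

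The median gene of the 164 was 0.81 higher at 150 mM than at 50 mM on the log2(FPKM + 0.5) scale, or 1.75-fold. Its level at 300 mM was 1.22 below that at 50 mM (2.33-fold lower) and 2.20 below that at 150 mM (4.60-fold lower). The rise ranged from 0.50 to 2.03, and the difference between 300 and 50 mM from -0.75 to -2.35. At least a 2-fold difference was reached in both directions by 44 genes. Levels at 300 mM were at least 4-fold below those at 150 mM in 96 genes and at least 8-fold below in 7. Over all 40810 Gohir IDs with a mean FPKM of at least 2 at 150 mM, the medians were 0.05 for 150 against 50 mM and 0.01 for 300 against 50 mM.

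**Figure D2:**
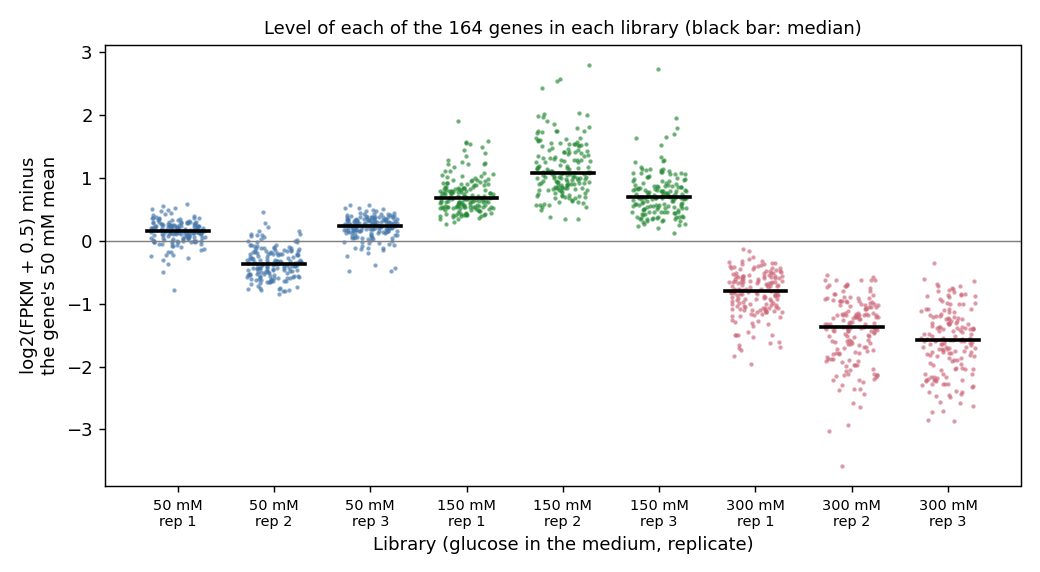
Level of each of the 164 genes in each of the 9 libraries, as log2(FPKM + 0.5) minus the mean of that gene at 50 mM. Each point is a gene and the black bar is the median over genes. The groups are kept apart by the rule of choice. It sets no order within a group, where replicate 2 at 50 mM, replicate 2 at 150 mM and replicate 1 at 300 mM are shifted, but it used every library.

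All 164 genes passed the filter on low values for a test over the whole table, which fitted log2(FPKM + 0.5) in 50988 genes with limma and a Benjamini-Hochberg threshold of 0.05. For 150 against 50 mM, 91 of them passed as higher, where 16% of all genes tested passed as higher and 29.3% in either direction. For 300 against 150 mM all 164 passed as lower, with 4.8% of all genes lower and 6.11% passing in either direction. For 300 against 50 mM 157 passed as lower, with 16.3% of all genes lower and 32.3% passing in either direction. These contrasts chose the genes, so nothing is read from the counts. The first count was also lower with single libraries left out. It was 24 without replicate 2 and 53 without replicate 1 at 50 mM. Without replicates 1, 2 and 3 at 150 mM it was 52, 30 and 52. Of all genes tested, 11.46% to 13.01% passed as higher under these settings, against 16% with all libraries. The lower counts are thus not particular to the 164 genes, and whether these genes lost more than the others was not tested.

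Gohir.A09G106800.v2.1 had the largest rise of the 164. Its FPKM was 5.62, 3.19 and 2.52 at 50 mM, 14.7, 10.8 and 26.6 at 150 mM, and 0.751, 0 and 0.411 at 300 mM. The middle group stands clear of both others, and at 300 mM the gene was close to silence, with 11, 0 and 6 reads. On the log2(FPKM + 0.5) scale it differed from its 50 mM level by 2.03 at 150 mM and by -2.30 at 300 mM. Its coding length was 732 bases.

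Gohir.A09G146900.v2.1, of 339 bases, followed. It had 12.1, 7.05 and 11.2 FPKM at 50 mM, 30.1, 41.2 and 35.5 FPKM at 150 mM, and 5.90, 1.96 and 1.18 FPKM at 300 mM. Replicate 1 at 300 mM came close to the lowest library at 50 mM, whereas the others lay far below. The log2 differences from 50 mM were 1.79 at 150 mM and -1.80 at 300 mM.

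Gohir.D03G009600.v2.1, a short gene of 258 bases, was high in both rankings. Its FPKM values were 6.42, 6.79 and 3.79 at 50 mM, 11.2, 17.3 and 22.7 at 150 mM, and 1.36, 0 and 1.36 at 300 mM. The values at 300 mM rest on 7, 0 and 7 reads, so its low end is poorly resolved. It was 2.82-fold higher at 150 mM than at 50 mM, and the log2 difference of 300 and 50 mM was -2.32.

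A further pair of steep risers was scarce throughout. Gohir.A11G034900.v2.1 averaged 1.10 ± 0.387 FPKM at 50 mM, 4.79 ± 0.985 at 150 mM and 0.273 ± 0.236 at 300 mM (SD, n = 3). Gohir.A06G180000.v2.1 averaged 1.44 ± 0.556, 5.09 ± 0.564 and 0.313 ± 0.236 FPKM at 50, 150 and 300 mM (SD, n = 3). Reads at 300 mM were 4, 0 and 4 for the gene on A11, and 11, 5 and 2 for the gene on A06. Of the 164 genes, 13 had a mean FPKM under 1 at 300 mM, and 4 had at least 1 library at 300 mM with no read.

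In several genes the mean at 150 mM came largely from replicate 2. Gohir.A07G075100.v2.1 had 11.8, 53.5 and 13.6 FPKM at 150 mM, against 9.31, 5.37 and 7.63 FPKM at 50 mM. Gohir.D09G175100.v2.1 had 3.74, 16.6 and 5.79 FPKM at 150 mM, against 2.01, 2.31 and 3.10 FPKM at 50 mM. The other libraries at 150 mM were thus above the 50 mM group by far less than the mean implies. At 300 mM the gene on A07 averaged 2.77 ± 1.52 FPKM and the gene on D09 0.679 ± 0.394 FPKM (SD, n = 3). Gohir.A12G135600.v2.1 was more even, with 136.6, 196.3 and 122.9 FPKM at 150 mM, against 60.8, 41.5 and 78.0 FPKM at 50 mM.

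The lowest level at 300 mM relative to 50 mM belonged to Gohir.D12G108400.v2.1, of 543 bases. Its FPKM was 54.7, 24.8 and 67.2 at 50 mM, 88.8, 140.2 and 89.8 at 150 mM, and 12.3, 8.38 and 5.81 at 300 mM. Every library at 300 mM was at or under 12.3 FPKM, with 63 to 134 reads, so this low level was counted well. The log2 difference of 300 and 50 mM was -2.35, and that of 150 and 50 mM was 1.19.

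Other moderately abundant genes lay nearly as far below their 50 mM level. Gohir.A07G099700.v2.1 averaged 101.2 ± 38.6 FPKM at 50 mM, 171.2 ± 34.6 at 150 mM and 20.7 ± 8.28 at 300 mM (SD, n = 3). Gohir.A13G040200.v2.1 averaged 50.2 ± 16.2, 81.2 ± 25.1 and 11.2 ± 3.84 FPKM in the same order of concentrations (n = 3). For both genes the 150 mM group was above the highest 50 mM library by a small step and the 300 mM group was well separated. Gohir.D09G181600.v2.1 had 29.8, 46.7 and 36.7 FPKM at 150 mM, against 27.3, 14.3 and 28.5 FPKM at 50 mM. At 300 mM it had 5.36, 4.70 and 3.32 FPKM. Gohir.D12G074400.v2.1 had a log2 difference of -1.99 between 300 and 50 mM, with 3.39 ± 1.21 FPKM at 300 mM and 15.6 ± 6.79 FPKM at 50 mM (SD, n = 3).

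The highest mean FPKM at 150 mM among the 164 genes belonged to Gohir.D07G048000.v2.1. It had 377.1, 333.8 and 408.2 FPKM at 50 mM, 646.7, 602.4 and 672.6 at 150 mM, and 255.0, 129.2 and 101.8 at 300 mM. The 150 mM libraries stood far above every other library, and at 300 mM replicate 1 was the highest by a wide margin. Its log2 differences from 50 mM were 0.78 at 150 mM and -1.31 at 300 mM.

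Gohir.A08G093400.v2.1 had 367.9, 264.4 and 392.5 FPKM at 50 mM, 604.1, 622.7 and 513.0 at 150 mM, and 222.4, 141.4 and 157.5 at 300 mM. Gohir.D03G133300.v2.1 averaged 294.3 ± 79.3 FPKM at 50 mM, 483.7 ± 62.1 at 150 mM and 93.8 ± 29.4 at 300 mM (SD, n = 3). Both again had replicate 2 as the lowest library at 50 mM. The other genes among the 8 most abundant at 150 mM were Gohir.A09G060900.v2.1, Gohir.A01G070900.v2.1, Gohir.D08G017100.v2.1, Gohir.A03G060000.v2.1 and Gohir.A08G240900.v2.1. Their log2 differences from 50 mM lay between 0.65 and 0.94 at 150 mM, and between -0.75 and -1.78 at 300 mM.

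**Figure D3:**
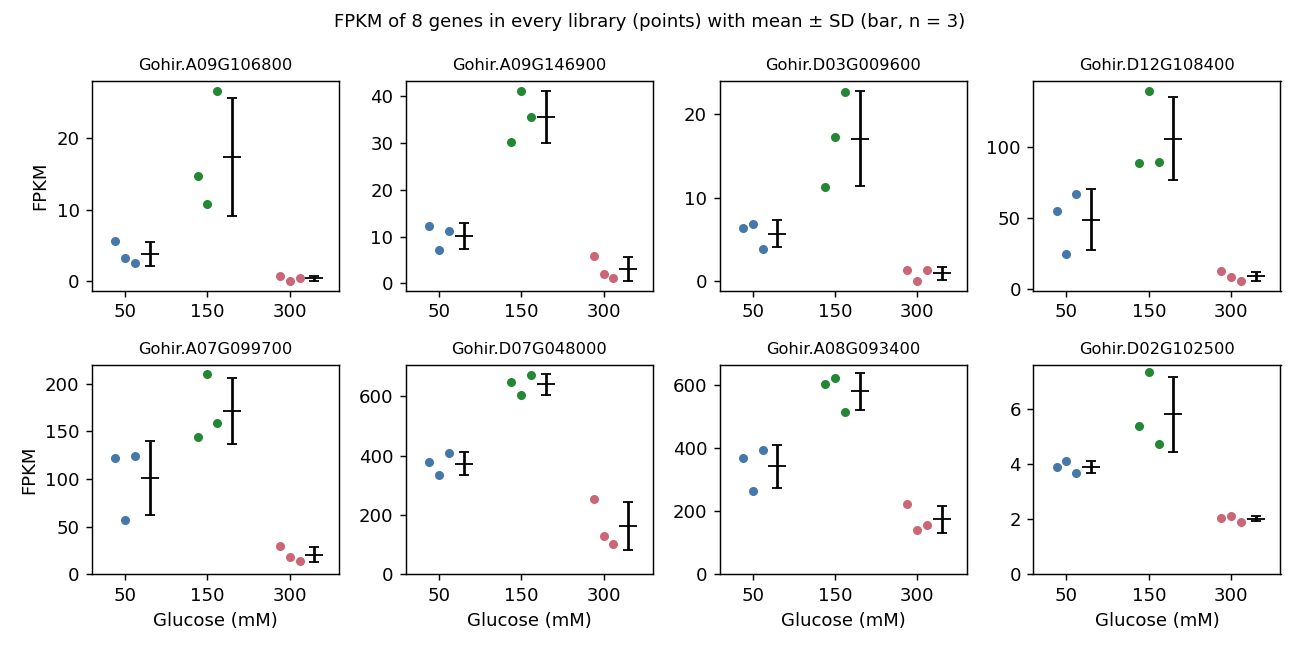
FPKM of 8 of the genes in every library at 50, 150 and 300 mM glucose, with points for libraries in the order of replicate 1, 2 and 3 and a bar for the mean ± SD (n = 3). The vertical scale differs between panels. In Gohir.D07G048000 the libraries at 150 mM lie between 602.4 and 672.6 FPKM, and in Gohir.A09G106800 those at 300 mM lie between 0 and 0.751 FPKM.

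The size of the pattern was set beside abundance among the 164 genes. The 41 genes under 10 FPKM at 50 mM had a median log2 difference of 1.09 for 150 against 50 mM. It was 0.77 for the 84 genes at 10 to 100 FPKM and 0.78 for the 39 genes at 100 FPKM or above, so the upper classes hardly differed. For 300 against 50 mM the medians were -1.07, -1.22 and -1.40 in the order of the classes from scarce to abundant. The offset of 0.5 added to each FPKM draws the differences of scarce genes towards 0. The classes and the differences share the 50 mM values, which the rule used as well.

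The genes were more abundant and shorter in the median than the wider set of IDs. Their median FPKM was 34.5 at 50 mM, 62.0 at 150 mM and 13.7 at 300 mM, where the 40810 Gohir IDs with at least 2 FPKM at 150 mM had medians of 9.83, 9.98 and 9.64. The rule asks for a raised level at 150 mM, and its offset and limits on overlap can favour abundant genes. The higher levels are thus partly set by the choice. The median coding length was 867 bases (quartiles 513 and 1162.5) against 1074 bases (quartiles 621 and 1656) over those IDs, so the lengths overlap widely.

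At the edges of the rule the choice was a fine one. Gohir.D02G102500.v2.1 was just inside the limit on the rise, with 5.81 ± 1.36 FPKM at 150 mM and 3.89 ± 0.210 at 50 mM (SD, n = 3). Gohir.D12G217100.v2.1 was just outside it, with 131.2 ± 24.4 FPKM at 150 mM and 91.7 ± 5.53 at 50 mM. For the limit at 300 mM, Gohir.A09G060900.v2.1 was just inside, with 243.8 ± 73.1 FPKM at 300 mM and 401.4 ± 46.4 at 50 mM. Gohir.D08G193600.v2.1 was just outside, with 6.62 ± 1.25 FPKM at 300 mM and 11.5 ± 2.77 at 50 mM. In all, 36 further IDs missed only the limit on the rise and 61 only that on the level at 300 mM. No ID missed only the limit on abundance, where Gohir.D04G084600.v2.1 was the scarcest gene taken, at 2.49 ± 0.842 FPKM at 150 mM.

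Few of the genes with a raised level at 150 mM met the whole rule. Of 6923 Gohir IDs that met the limits for 150 against 50 mM, 4194 (60.6%) were also at least 0.5 above 50 mM at 300 mM with no overlap of libraries, and the 164 made up 2.37%. Seen from the other side, they were 4.19% of the 3916 IDs that met the limits for 300 against 50 mM. The 40810 Gohir IDs with at least 2 FPKM at 150 mM include the 6923 and the 3916. Of these 40810, 3916 met the limits for 300 against 50 mM, 4194 were raised at both concentrations, and 0.402% met the whole rule. A smaller set that holds all 164 has a share above 0.402% by construction. The differences at 150 and at 300 mM are both taken from the same 3 libraries at 50 mM. A shift of those libraries moves both differences the same way, so the shares are a description.

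Within a glucose level the 164 genes moved together from library to library. The rule set no order within a group, but it used every library and so can favour some orders. Without replicate 2 at 150 mM, 34 of the 164 no longer met it. At 50 mM, replicate 2 was the lowest library in 142 of the 164 genes (86.6%), where 35.2% of the 40810 IDs had it lowest. At 150 mM, replicate 2 was the highest in 134 genes (81.7%, against 34.0% of the IDs). At 300 mM, replicate 1 was the highest in 141 genes (86.0%, against 36.8%). All 3 orders held in 106 of the genes (64.6%), against 5.44% of the IDs. These orders are the commonest ones in the same 164 genes, so the shares are a description.

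The size of these library shifts was not small beside the pattern itself. In the median gene, replicate 2 at 50 mM was 0.37 below its group mean on the log2 scale, replicate 2 at 150 mM 0.24 above and replicate 1 at 300 mM 0.44 above. Over all 40810 IDs the medians of the 9 libraries lay between -0.01 and 0.02. At 300 mM replicate 1 was 1.58-fold above the mean of the others in the median gene. The within-group SD of log2(FPKM + 0.5) had a median of 0.37 at 50 mM, 0.27 at 150 mM and 0.46 at 300 mM in the 164 genes. Over the 40810 IDs it was 0.15, 0.16 and 0.20.

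These deviations from the group means had a median Pearson correlation of 0.664 between pairs of the 164 genes. Between pairs of IDs from every 20th of the 40810 it was 0.000286, and between pairs from every other ID of those still raised at 300 mM it was 0.232. All are over the same 9 libraries and describe them, with no test. The 164 genes were therefore not 164 separate observations.

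The whole set of library orders was scarcer in larger groups that share a limit with the 164 genes. It held in 3.70% of the 4194 IDs still raised at 300 mM, in 8.50% of the 3752 other IDs below the 50 mM level at 300 mM, and in 709 (10.5%) of the 6759 other IDs raised at 150 mM. Replicate 1 at 300 mM was the highest library in 67.0% of the IDs still raised, and in 20.2% of the other IDs below the 50 mM level. Replicate 2 at 150 mM was highest in 14.2% of the IDs still raised and in 57.0% of the other IDs below the 50 mM level. The orders were picked as the commonest in the 164 genes, which favours those genes. The difference between the groups of genes was not tested.

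**Figure D4:**
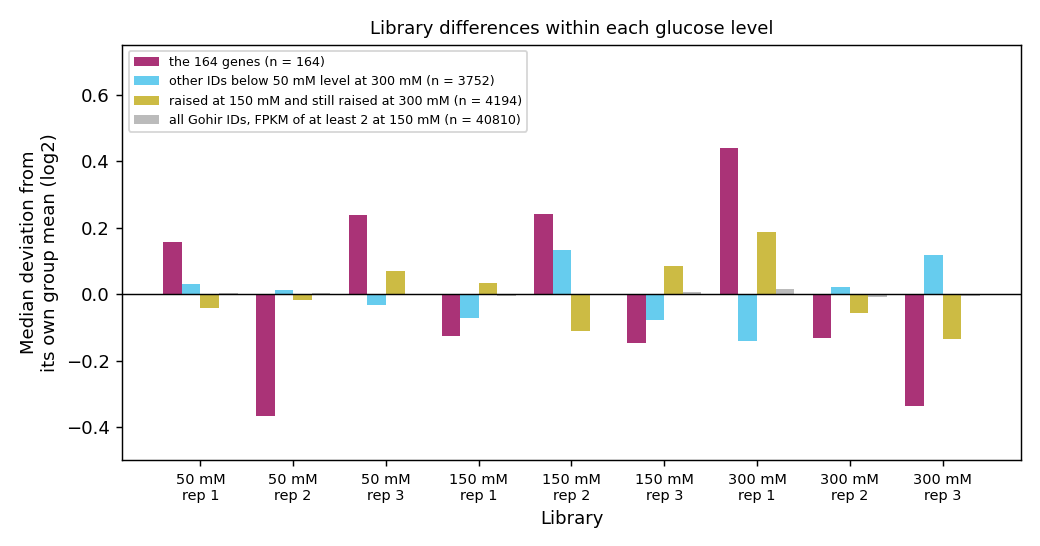
Median deviation of each library from the mean of its own glucose level, on the log2(FPKM + 0.5) scale, for the 164 genes and for 3 wider groups of IDs. Each bar is a median over the genes of a group. Bars of the 164 genes reach -0.37 in replicate 2 at 50 mM and 0.44 in replicate 1 at 300 mM, while those of all IDs stay between -0.01 and 0.02.

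A few genes had little spread or another order of libraries. Gohir.A01G207300.v2.1 had 144.2, 140.8 and 144.1 FPKM at 50 mM and 190.0, 228.2 and 216.6 FPKM at 150 mM. At 300 mM it had 91.8, 62.6 and 56.7 FPKM. Its libraries kept the usual order, with almost no spread at 50 mM and replicate 1 well above the others at 300 mM. Gohir.A07G030200.v2.1 had 44.2, 48.3 and 42.5 FPKM at 50 mM, 60.7, 65.5 and 74.3 at 150 mM, and 19.4, 23.9 and 16.7 at 300 mM. Replicate 2 was its highest library at both 50 and 300 mM. Gohir.D05G209950.v2.1 was as even, with 9.54, 8.004 and 8.62 FPKM at 50 mM, 12.9, 15.6 and 13.1 at 150 mM, and 4.76, 4.26 and 5.56 at 300 mM.

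At the other end of the spread, Gohir.A05G005600.v2.1 had 122.0, 298.0 and 116.4 FPKM at 150 mM, against 87.1, 49.3 and 97.0 FPKM at 50 mM. Replicate 2 was thus the highest library of the one group and the lowest of the other. Gohir.A01G121600.v2.1, of 288 bases, had 2.08, 2.31 and 0.174 FPKM at 300 mM, the last from 1 read. In Gohir.D05G050700.v2.1 replicate 1 at 300 mM had 28.9 FPKM, against 6.39 and 8.40 in the others, and the 50 mM libraries had 58.5, 32.3 and 35.5 FPKM. Gohir.A05G159300.v2.1 and Gohir.D05G162000.v2.1 had replicate 1 at 48.9 and 76.2 FPKM at 300 mM, and the next library at 15.0 and 30.2 FPKM.

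The choice was repeated with each library left out, and the left-out library was then set against the others. The IDs were still chosen on the libraries it is set against, which tilts the shares below to the side of the pattern, so they are given as a description. Without replicate 1 at 300 mM 329 IDs met the rule, and all of the 164 were among them. In that library 181 of the 329 (55.0%) were below every 50 mM library, and the median was 0.47 below the 50 mM mean on the log2 scale. Of the 40810 Gohir IDs with at least 2 FPKM at 150 mM, 38.1% were below every 50 mM library in it. Without replicate 2 at 300 mM 163 IDs met the rule and 156 of these (95.7%) were below every 50 mM library in it. Without replicate 3 it was 143 of 150 (95.3%). Over the 40810 IDs the shares were 38.8% in replicate 2 and 37.5% in replicate 3. The median was 1.33 below the 50 mM mean in replicate 2 and 1.59 below it in replicate 3, each in its own choice of IDs.

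For the libraries at 150 mM the shares of IDs were 171 of 211 (81.0%), 134 of 146 (91.8%) and 170 of 204 (83.3%) above every 50 mM library for replicates 1, 2 and 3. Over all IDs of 2 FPKM or more the shares were 40.8%, 42.5% and 42.1%. For the libraries at 50 mM the question was whether the library lay between the groups at 150 and 300 mM. It did in 167 of 191 IDs (87.4%) for replicate 1, in 129 of 244 (52.9%) for replicate 2 and in 158 of 184 (85.9%) for replicate 3. Over all IDs of 2 FPKM or more it did in 2.74%, 2.82% and 2.92%. Among the 50 mM libraries, replicate 2 had the lowest share. The criteria differ between concentrations, so the shares are not ranked across them. Of the 164 genes, 89 met the rule whichever of the 9 libraries was left out.

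Both subgenomes held the pattern alike. Of 163 genes on a numbered chromosome, 82 were of the A and 81 of the D subgenome (50.3% A), where 49.4% of the IDs of 2 FPKM or more were of the A subgenome. Gohir.1Z049441.v2.1 was the only gene whose ID names no chromosome, with 77.1 ± 26.6, 112.5 ± 17.2 and 21.0 ± 7.50 FPKM at 50, 150 and 300 mM (SD, n = 3). Each of the 26 chromosomes had a gene, from 1 on A13 to 13 on D05. As a share of the IDs of 2 FPKM or more the range was 0.068% on A13 to 0.710% on A03.

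Copies of the genes in the other subgenome were sought by position and length. A counterpart was the only ID of the like-numbered chromosome in the other subgenome with the same coding length and a rank along the chromosome within 0.02 of its whole. Such an ID was found for 49 of the 164 genes, and 43 of these reached 2 FPKM at 150 mM. Equal length and like position do not prove that IDs are copies of each other, and reads shared between near-identical copies could make their values alike, which was not tested.

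The counterparts mostly had the same order of levels. Of the 43, 37 (86.0%) were higher at 150 mM and lower at 300 mM than at 50 mM in their group means, against 1493 of 13380 (11.2%) when counterparts were sought for every Gohir ID of 2 FPKM or more. Counting all 49 counterparts whatever their level, 39 (79.6%) had that order, against 2277 of 20516 (11.1%). Of the 43, 13 met the full rule themselves, a share of 30.2% against 0.344%. These 13 come from 7 pairs of genes, most counted from both sides.

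The other 30 counterparts are those left once the 13 that met the rule were set aside, so their own levels had a part in the choice and the counts are a description. Their order was the same in 24, with medians of 0.57 for 150 against 50 mM and -1.03 for 300 against 50 mM on the log2 scale. At least 0.5 of rise was seen in 15 and at least 0.75 of fall at 300 mM in 20. Every 150 mM library was above every 50 mM library in 14 of them, and every 300 mM library was below every 50 mM library in 16. Both held in 2 of the 30. Over all IDs of 2 FPKM or more, 28.8% had every 150 mM library above and 23.7% every 300 mM library below the 50 mM group, and 0.916% had both.

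**Figure D5:**
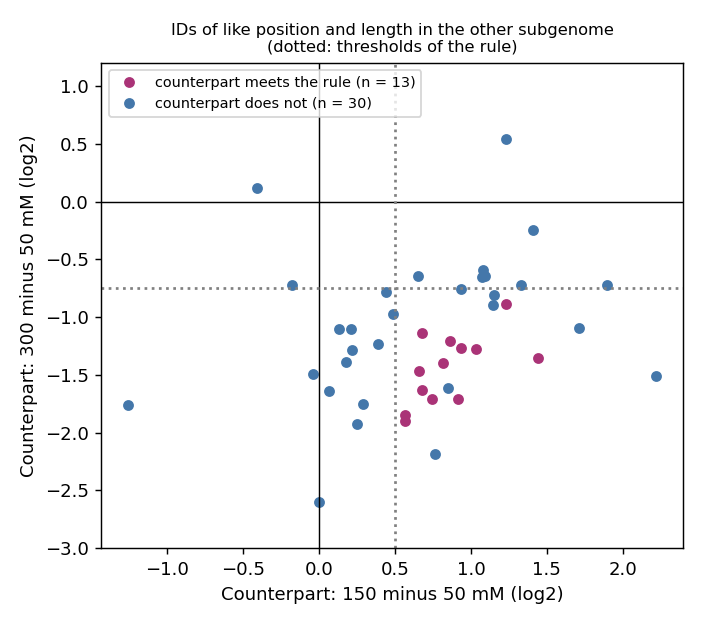
Difference of group means on the log2(FPKM + 0.5) scale for the 43 counterparts with at least 2 FPKM at 150 mM, with 150 minus 50 mM on the horizontal and 300 minus 50 mM on the vertical axis. Colours mark whether the counterpart itself met the rule (13) or not (30), and dotted lines are the limits of the rule. In 37 of the 43 the point lies right of 0 and below 0.

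Some pairs ran in parallel to a fine degree. Gohir.A10G237400.v2.1 and Gohir.D10G249100.v2.1, both of 2001 bases, had log2 differences of 0.57 and 0.56 for 150 against 50 mM, and of -1.90 and -1.85 for 300 against 50 mM. The gene on A10 had 200.1, 115.7 and 215.4 FPKM at 50 mM, 253.3, 287.0 and 224.3 at 150 mM, and 79.5, 38.4 and 30.6 at 300 mM. The gene on D10 had 240.4, 136.5 and 259.7 FPKM at 50 mM, 300.8, 346.1 and 264.2 at 150 mM, and 95.5, 51.7 and 36.2 at 300 mM. Both had the same order of libraries within each concentration.

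Gohir.A05G225200.v2.1 and Gohir.D05G227800.v2.1, of 960 bases, averaged 323.4 ± 73.0 and 306.4 ± 71.0 FPKM at 150 mM, against 159.8 ± 45.3 and 187.1 ± 58.4 FPKM at 50 mM (SD, n = 3). At 300 mM they averaged 67.2 ± 27.5 and 57.9 ± 24.6 FPKM. Gohir.A01G070900.v2.1 and Gohir.D01G057933.v2.1, of 378 bases, differed in level, with 456.4 ± 34.0 and 101.2 ± 4.69 FPKM at 150 mM. In each of these pairs both genes met the rule, which fixes the same order of groups for them. The remaining pairs were Gohir.A01G072800.v2.1 with Gohir.D01G059400.v2.1, Gohir.A06G160200.v2.1 with Gohir.D06G166300.v2.1, Gohir.A06G204700.v2.1 with Gohir.D06G216800.v2.1, and Gohir.A07G075100.v2.1 with Gohir.D07G079675.v2.1.

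Gohir.D09G103500.v2.1, the counterpart of the steepest riser Gohir.A09G106800.v2.1, averaged 3.80, 19.2 and 1.60 FPKM at 50, 150 and 300 mM. Its log2 differences from 50 mM, 2.22 at 150 mM and -1.51 at 300 mM, passed both size limits, and it missed the rule on the overlap of libraries. In other cases the gene and its counterpart differed in at least 1 direction, and such IDs may not be copies of each other. Gohir.D11G008500.v2.1 averaged 12.7 FPKM at 150 mM and 11.4 FPKM at 50 mM, where its counterpart Gohir.A11G009200.v2.1 averaged 99.0 FPKM at 150 mM and 42.7 FPKM at 50 mM. At 300 mM both were below their 50 mM level, with log2 differences of -2.60 for the ID on D11 and -1.57 for that on A11. Gohir.A05G048800.v2.1 was above its 50 mM level at 300 mM (log2 difference 0.54), while Gohir.D05G050700.v2.1 was below it (-1.76). Gohir.A12G068500.v2.1 averaged 0.025 FPKM at 50 mM and was listed at 0 at the other concentrations. The ID matched to Gohir.D12G074400.v2.1 was thus not at a readable level, and IDs of another length were not searched. These examples were picked after their values were seen.

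Neighbouring IDs were examined as well. The 183 IDs of 2 FPKM or more directly before or after one of the genes, themselves not among the 164, had medians of 0.06 for 150 against 50 mM and -0.04 for 300 against 50 mM on the log2 scale. The order of levels was that of the genes in 38 of them (20.8%), where 11.6% of all IDs of 2 FPKM or more had it. Among the counterparts that likewise did not meet the rule it was 24 of 30, and the difference was not tested. Direct neighbours within the 164 occurred as 2 pairs. Gohir.A02G140400.v2.1 had 14.3, 19.9 and 19.8 FPKM at 50 mM, 43.2, 45.0 and 34.8 at 150 mM, and 12.3, 6.46 and 5.10 at 300 mM. Gohir.A02G140500.v2.1 averaged 12.1 ± 5.00, 27.2 ± 6.01 and 4.19 ± 0.232 FPKM at 50, 150 and 300 mM (SD, n = 3). Unlike most of the genes, this pair had replicate 1 lowest at 50 mM. In the other pair, Gohir.A05G225100.v2.1 stood beside Gohir.A05G225200.v2.1, with 112.7 ± 54.8 FPKM at 150 mM and 55.2 ± 22.0 FPKM at 50 mM.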

How the data were processed

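Per the submitters' processing notes, HISAT2 and featureCounts 1.5.0-p3 were used. Build, annotation, strand setting and the treatment of shared reads were not given in the sources used here. FPKM values per library were deposited by the authors, a unit read from the values themselves. Whole reads and gene lengths were recovered from the steps between FPKM values, and all 68279 rows above 0 gave whole reads within 0.001. Of Gohir lengths in rows of at least 100 reads, 95.5% were divisible by 3, hence "coding length". One read in a gene of 1000 bases is an FPKM of 0.0500 to 0.0545. The library-size term was 0.984 to 1.10 times the recovered reads.

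Groups followed the titles. Genes reaching 1 FPKM in 3 or more libraries entered the test, and log2(FPKM + 0.5) was fitted with limma 3.58.1 (trend, robust, statmod 1.5.0, R 4.3.3) over all 9 libraries, two-sided, Benjamini-Hochberg adjusted. The fit and the recovery were tested on simulated data. No pair of libraries of a group agreed within sampling noise (chi-square per degree of freedom 4.44 to 17.1). None of the IDs matched the gene table of 99454 genes (0 matches), so no sequence is shown. The genes and lists were chosen with earlier results of these data known. Genes are named where they had the 8 largest rises, the 8 lowest levels at 300 mM, the 8 highest FPKM at 150 mM, the largest or smallest spread (4 each), the highest replicate 1 at 300 mM (4), lay next to a limit, or were paired with another of the genes. Other counterparts, and the gene with no chromosome, were named after their values were seen. Alternatives covered pseudocount, filter, scaling, thresholds, replicate block, limma-voom and leaving out each library.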

Additional observations from a re-analysis of the deposited data

How the results depend on the processing

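The number of genes meeting the rule was 138 to 172 under other pseudocounts, abundance limits and scalings. Scaled to recovered reads it was 138, of which 124 were among the 164 (75.6% of the 164 and 89.9% of the 138). Under that scaling 12.4% of all genes tested passed as lower for 300 against 50 mM, against 16.3% in the main fit. In all, 116 genes met the rule under all 3 other scalings. Stricter thresholds of 1 in both directions left 44 genes, by construction, and 379 met the rule where libraries were allowed to overlap. The share of neighbouring IDs with the same order was 15.0% in that last case, against 20.8%. With single libraries left out, 146 to 329 genes met the rule, with the highest number without replicate 1 at 300 mM. Without replicate 2 at 50 mM there were 244, holding 123 of the 164. The count of the genes passing for 150 against 50 mM ranged from 24 to 114 over the libraries left out, the lowest without replicate 2 at 50 mM and the highest without replicate 1 at 300 mM. Of all genes tested, 11.5% and 16.8% passed as higher under those settings. The causes were not tested.

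Replicate numbers are shared between groups. Deviations of same-numbered libraries had correlations of -0.275 to 0.102 over genes, and those of differently numbered libraries -0.246 to 0.237. Such values cannot exclude that same-numbered samples were handled together. The main fit used no pairing. With a replicate block 66, 163 and 146 of the genes passed for 150 against 50 mM, 300 against 150 mM and 300 against 50 mM. Of all genes tested, 13.9%, 3.37% and 14.3% passed in the same directions. With single libraries left out, A genes were 46.2% to 52.7% of the choice, and 81.4% to 93.0% of counterparts had the same order. The log2 differences of the 47 named IDs kept their sign in all 1316 recomputed values, and 15 of these values moved by more than the spread between replicates. Since libraries of these IDs do not overlap, the sign was fixed wherever a library was left out or the pseudocount changed. The other scalings move the libraries too little to reverse differences of this size (0.984 to 1.10 times for recovered reads). The kept signs are therefore no support. Genes of few reads at 300 mM, such as those with a library at 0, are limited by depth.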

Other observations

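Loci numbered outside the Gohir naming could not enter the choice. Of 2381 such loci with at least 2 FPKM at 150 mM, 3 met all its number limits (0.126%). The most abundant of them, of 2256 bases, averaged 182.4 ± 49.6 FPKM at 50 mM, 307.1 ± 24.6 at 150 mM and 54.1 ± 21.5 at 300 mM (SD, n = 3). Its libraries had the same order within each concentration as most of the 164 genes, with 125.1 FPKM in replicate 2 at 50 mM, 333.3 in replicate 2 at 150 mM and 78.8 in replicate 1 at 300 mM. The other two averaged 7.90 ± 3.39 and 3.69 ± 0.687 FPKM at 150 mM, against 4.01 ± 0.448 and 1.85 ± 0.548 FPKM at 50 mM.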
